A study of Rattus norvegicus with 18 samples.

Results

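The genes described here mostly serve the postsynaptic side of excitatory synapses. They encode scaffold proteins, synaptic adhesion molecules, and the calcium-dependent enzymes and transcription factors that act downstream of synaptic activity. The neurexins among them are presynaptic, and Nlgn2 is best known at inhibitory synapses. The genes were taken as a list of 45 symbols, and every probe set that the array's annotation assigned to 1 of these symbols was collected. Of the 45 genes, 41 had a probe set, 95 probe sets in all of the 31099 on the array. Lrrtm1, Lrrtm2, Ephb2 and Iqsec2 had none under these symbols and were not analysed here. Each gene was represented by its probe set with the highest mean over all pools, and 39 of the 41 passed a filter that removed the dimmest 40% of probe sets (a mean signal under 19.7). Homer2, with pool signals of 8.8 to 36.7, and Ppp1r9a, the dimmest member with a mean signal of 4.73, fell below it, which left 39 members among 18625 probe sets tested.

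Postsynaptic scaffolds are stacked below the membrane. MAGUK proteins of the Dlg family bind receptors and adhesion molecules, SAPAP proteins (Dlgap genes) link them to Shank proteins, and Homer proteins tie Shank to metabotropic glutamate receptors and calcium stores. Calcium entering through glutamate receptors acts on the kinase CaMKII and the phosphatase calcineurin, which shift synaptic strength up or down, and on the transcription factor CREB, which switches on genes needed for lasting changes. Sleep, and paradoxical (rapid eye movement) sleep in particular, has long been studied for its part in such plasticity in the hippocampus and neocortex.

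All groups were male Sprague-Dawley rats with implanted electrodes for sleep recording, and the labels give their weight but no age. Deprived rats were kept from paradoxical sleep for 78 h on small platforms above water, recovery rats had 72 h of the same deprivation and then 6 h of permitted sleep, and control rats remained in the home cage, so the controls differ from the other groups by the platform as well as by sleep. RNA of the right hippocampal formation and of the right neocortex came from 12 rats per state, combined into 2 pools of 6 rats (set 1 and set 2), and both structures of a pool came from the same rats. This gave 12 pools in 6 groups with n = 2 pools each, measured on 18 arrays. Set 1 was pooled and hybridised in duplicate, and its 2 arrays were averaged. Values are probe set signals on a linear scale, and they cannot be compared between genes because each probe set has its own response.

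Most hippocampal and neocortical marker genes followed the labels. In the hippocampal formation 5 of 7 hippocampal neuron markers passed as higher and 4 of 8 neocortical neuron markers as lower (adjusted p under 0.05, limma). Against the labels, 1 hippocampal marker was lower and 2 neocortical markers were higher there, and none of these passed. All 9 markers of striatal neurons were lower there, and their summed signal was 821 to 1068 in the hippocampal pools and 2075 to 2581 in the neocortical pools. The summed signal of 10 pan-neuronal markers was 15359.5 to 16585 in the hippocampal formation and 14861 to 16713 in the neocortex. Of these 10 markers 1 passed, higher in the hippocampal formation. Of 7 endothelial markers 4 were lower in the hippocampal formation (median -0.33, summed signal 905 to 1064 there and 1105 to 1275 in the neocortex). Higher there were 2 of 9 oligodendrocyte and 2 of 8 astrocyte markers (medians 0.18 and 0.16). The oligodendrocyte sum was 11340 to 16093 in hippocampal and 10630 to 12715 in neocortical pools. The astrocyte sum was 14530.5 to 15884 and 12349 to 14649, and both sums overlapped. Over all probe sets 9.4% passed as higher and 10.5% as lower. Of 8 microglial markers none passed. The ratio of 3′ to 5′ Actb signal, a measure of RNA integrity and labelling, was 2.33 to 2.52 in hippocampal pools and 2.35 to 3.17 in neocortical pools. The part of these in the structure differences below was not tested. The sets of rats also differed. In the hippocampal formation the 3 pools of set 1 and the 3 of set 2 did not overlap for 23 of the 39 members (43.2% of all probe sets), and in the neocortex for 19 (36.3% of all). The number of arrays limits the precision, and p-values measure only the spread between pools of 6 rats.

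The structures were compared as the difference between hippocampal formation and neocortex within each of the 6 animal pools. Of the 39 members, 7 were higher and 8 lower in the hippocampal formation at an adjusted p under 0.05 (limma, Benjamini-Hochberg over all probe sets), and 24 did not pass. Over all probe sets 19.9% passed, 9.4% higher and 10.5% lower. The median difference was -0.03 on the log2 scale for the members and -0.01 for all probe sets, while the median size of the difference without its sign was 0.227 for the members and 0.162 for all. In tissue pools a lower signal can come from fewer cells of a type or from less RNA per cell, and these cannot be told apart.

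**Figure D1:**
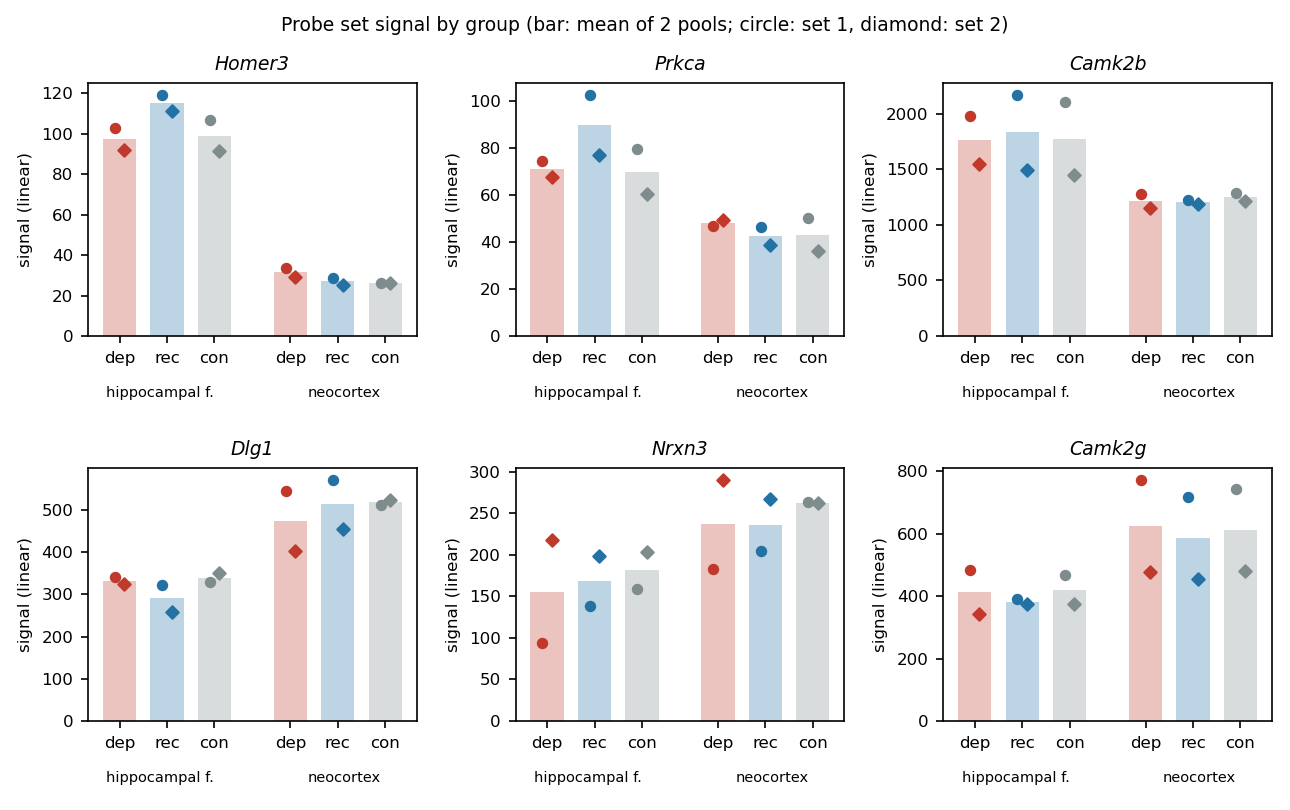
Linear signal of 6 members in each of the 12 pools, with hippocampal groups on the left and neocortical groups on the right of each panel (dep, deprived; rec, recovery; con, control); bars are means of 2 pools, circles set 1 and diamonds set 2. Homer3 lay at 91.2 to 119 in the hippocampal formation and at 25.3 to 33.4 in the neocortex, the widest separation among the members.

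Homer3, a Homer scaffold that links metabotropic glutamate receptors to calcium stores and Shank, had the largest difference of all members. Its signal was 91.2 to 119 in the 6 hippocampal pools (median 105) and 25.3 to 33.4 in the 6 neocortical pools (median 27.6). Every hippocampal pool lay above every neocortical one, by 3.68-fold (log2 difference 1.88, SE 0.0823, adjusted p = 5.09e-05, limma). A second Homer3 probe set gave 1.45 (adjusted p = 0.0005, limma). Homer1, the family member with activity-induced short forms, moved the other way on its brightest probe set. That probe set read 475 to 556 in the hippocampal formation (median 499) and 575 to 663 in the neocortex (median 599), without overlap, a log2 difference of -0.28 (SE 0.0614, adjusted p = 0.0204, limma). Its 4 other probe sets ranged from -0.71 to 0.08.

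Among the MAGUKs, Dlg1 (SAP97), which traffics AMPA receptors, was the member lowered most among those that passed. It measured 258 to 350.0 in the hippocampal pools (median 327) and 404 to 571 in the neocortical pools (median 518). The groups did not overlap, and the signal was 1.56-fold lower in the hippocampal formation (log2 difference -0.64, SE 0.0622, adjusted p = 0.000693, limma). A second Dlg1 probe set gave -0.71. Dlg4, which encodes PSD-95, the most studied scaffold of the excitatory synapse, differed by 0.01 (SE 0.084), and Dlg2 and Dlg3 by -0.23 and 0.16. None of these 3 passed the test.

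The SAPAP linkers all had negative differences, of which 1 passed. Dlgap3 had a signal of 104 to 131 in the hippocampal pools (median 114) and 142 to 168 in the neocortical pools (median 159). Again no pool overlapped, and the log2 difference was -0.44 (SE 0.0598, adjusted p = 0.00298, limma), with -0.64 on a second probe set. Dlgap1, Dlgap2 and Dlgap4 differed by -0.03, -0.03 and -0.14 and did not pass. Dlgap3 is known to be strongly expressed in the striatum, and the striatal marker genes moved in the same direction. Their part in this difference was not tested.

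Of the Shank scaffolds, which join SAPAP and Homer to actin, 2 of 3 passed. Shank1 measured 773 to 919.5 in the hippocampal formation (median 869) and 868 to 1287 in the neocortex (median 1101), groups that overlapped, and the paired log2 difference was -0.35 (SE 0.0836, adjusted p = 0.0274, limma). It was negative in 5 of 6 animal pools, and a second, dim Shank1 probe set gave 0.13. Shank2 was lower by a smaller amount, with a log2 difference of -0.18 (adjusted p = 0.0467, limma). Shank3 differed by 0.10 (SE 0.0916) and did not pass.

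Of the 6 adhesion molecules measured, 1 was higher and 1 lower. Epha4, an ephrin receptor that shapes dendritic spines in response to glial ephrin, had a signal of 1111 to 1459.5 in the hippocampal pools (median 1295) and 842 to 964 in the neocortical pools (median 907). It was 1.41-fold higher in the hippocampal formation with no overlap (log2 difference 0.50, SE 0.0588, adjusted p = 0.00156, limma), and its 3 other probe sets gave 0.48 to 0.59. Nrxn3, a presynaptic neurexin that binds neuroligins and LRRTMs, had 93.8 to 218 in the hippocampal formation (median 178) and 183 to 290.1 in the neocortex (median 263). The groups overlapped, but each hippocampal pool lay below the neocortical pool of the same rats (log2 difference -0.58, SE 0.0908, adjusted p = 0.00567, limma).

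The neuroligins, postsynaptic partners of the neurexins, did not pass the test, and 2 of them differed between the sets of rats. For Nlgn2, best known at inhibitory synapses, the log2 difference was -0.97, -1.53 and -1.47 in the deprived, recovery and control pools of set 1, and -0.18, -0.30 and 0.31 in those of set 2. For Nlgn3 it was 0.61, 1.40 and 1.48 in set 1, and 0.20, -0.32 and -0.38 in set 2. The mean over all pools was -0.69 (SE 0.26) for Nlgn2 and 0.50 (SE 0.294) for Nlgn3. Nlgn1 and Nlgn3 each had probe sets of both signs in this difference.

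Among the adaptors, Caskin1, a partner of the MAGUK CASK, and Cnksr2, a scaffold of the Ras and MAP kinase route, were higher in the hippocampal formation. Caskin1 had 69.4 to 128 in the hippocampal pools (median 95.4) and 60.5 to 91.5 in the neocortical pools (median 74.3), with overlap. Its log2 difference of 0.33 (SE 0.0918, adjusted p = 0.0454, limma) was positive in 4 of 6 animal pools. Cnksr2 differed by 0.22 (adjusted p = 0.0288, limma). Grip1, which binds AMPA receptors, had a difference of 0.40 that missed the threshold (adjusted p = 0.0518, limma).

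Iqsec1, an exchange factor for the small GTPase ARF6, was the only one of 3 measured GTPase regulators that passed. Its signal was 319.9 to 389 in the hippocampal formation (median 377) and 438 to 525 in the neocortex (median 449). No pool overlapped, and the log2 difference was -0.34 (SE 0.0575, adjusted p = 0.00772, limma). Sipa1l1 and Kalrn, regulators of Rap and Rac, differed by -0.12 and 0.14, and the actin and phosphatase binder Ppp1r9b by 0.36 (SE 0.163). These 3 did not pass.

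The calcium-dependent enzymes held 4 of the 15 members that passed. Prkca, the conventional protein kinase C alpha, measured 60.6 to 103 in the hippocampal pools (median 75.9) and 36.1 to 50.1 in the neocortical pools (median 46.6). The groups did not overlap, a 1.72-fold higher signal in the hippocampal formation (log2 difference 0.78, SE 0.0818, adjusted p = 0.000959, limma). The CaMKII subunits went in different directions. Camk2b, the actin-binding beta subunit, had 1446 to 2169 in the hippocampal formation (median 1748) and 1151 to 1286 in the neocortex (median 1221), without overlap, a log2 difference of 0.53 (SE 0.0863, adjusted p = 0.00666, limma). The difference was 0.63 to 0.82 in the animal pools of set 1 and 0.25 to 0.42 in those of set 2. Camk2g, the gamma subunit, which carries calcium-calmodulin to the nucleus, had 341 to 485 in the hippocampal formation (median 382) and 454 to 772 in the neocortex (median 585). It was lower in the hippocampal pool of all 6 animal pools (log2 difference -0.56, SE 0.089, adjusted p = 0.00611, limma). Camk2a, the alpha subunit, differed by 0.20 on its brightest probe set and did not pass (adjusted p = 0.0812, limma). Its other probe sets gave -0.22, -0.43 and 0.35, so its direction was not settled.

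Ppp3ca, the catalytic subunit A alpha of calcineurin and the member with the brightest probe set, had 2991 to 4004 in the hippocampal formation (median 3266) and 2623 to 3189 in the neocortex (median 2844). The groups overlapped, yet all 6 animal pools were higher in the hippocampal formation (log2 difference 0.24, SE 0.0564, adjusted p = 0.0252, limma). Its paralog Ppp3cb differed by 0.17, the kinase Camk4 by -0.19 and the calmodulin-binding neurogranin gene Nrgn by -0.07, and none of the 3 passed. Creb1 and Crem, the CREB family members, differed by -0.10 and -0.08 and did not pass.

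**Figure D2:**
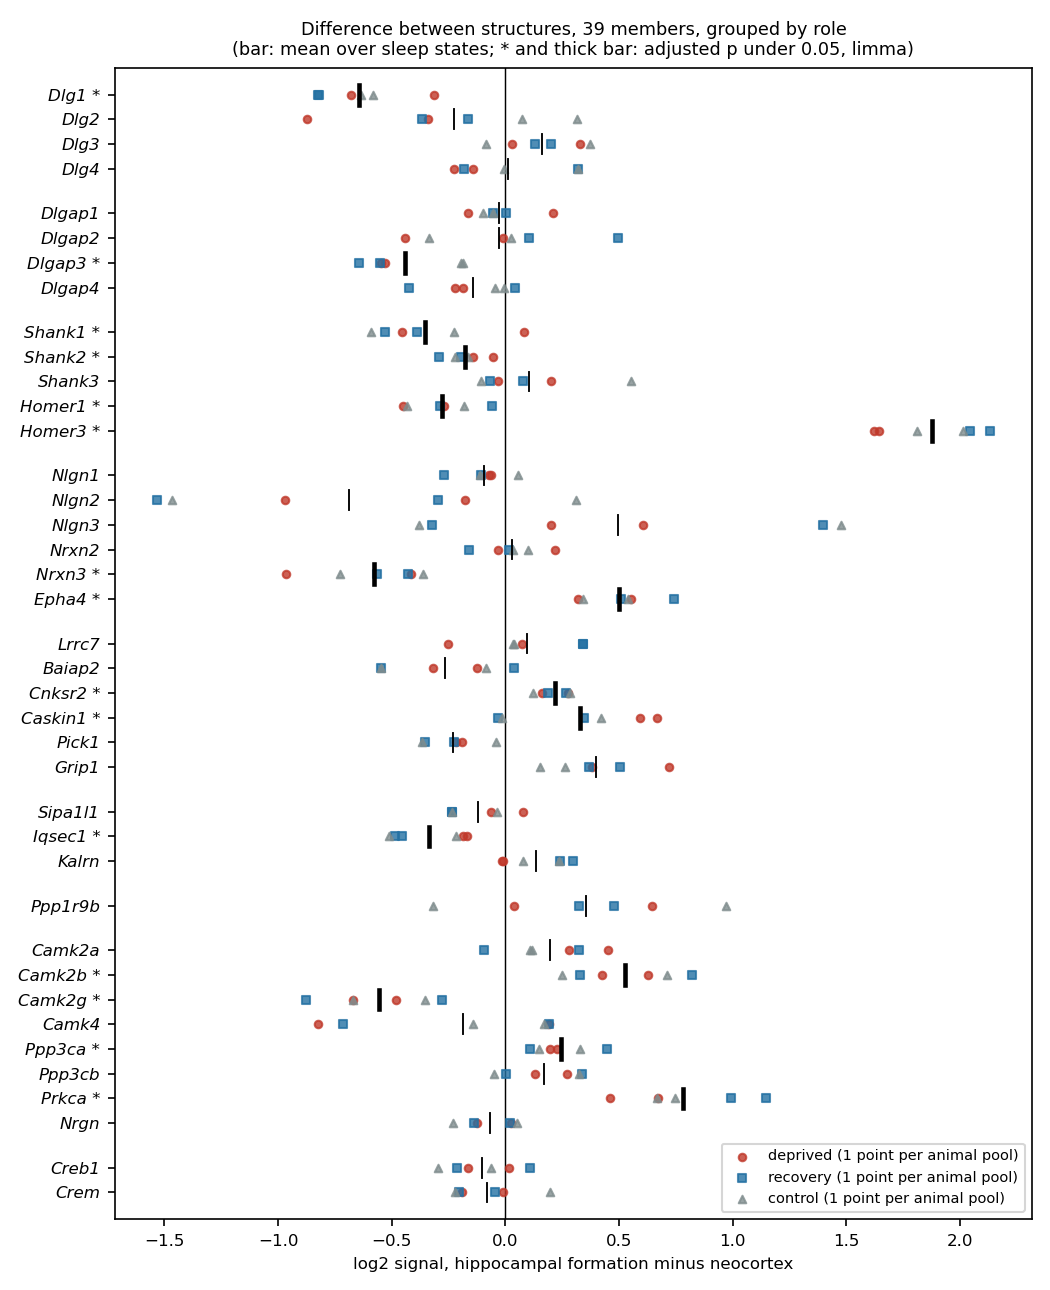
Log2 signal of the hippocampal formation minus that of the neocortex for the 39 members, grouped by role from MAGUK scaffolds at the top to the CREB family at the bottom. Each point is 1 of 6 animal pools, bars are means, and asterisks mark the 15 members with an adjusted p under 0.05 (limma). Homer3 stands apart at 1.88, and the remaining means run from -0.69 (Nlgn2) to 0.78 (Prkca).

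The same direction held on the other probe sets of most members that passed. Over all 81 kept probe sets of the members, 14 were higher and 13 lower at the same threshold. Of 25 members with more than 1 kept probe set, 10 had probe sets of both signs in this comparison. These were Baiap2, Camk2a, Creb1, Crem, Dlgap1, Homer1, Nlgn1, Nlgn3, Ppp3cb and Shank1. With any 1 of the 6 animal pools left out, 9 of the 15 members stayed past the threshold (limma). Shank2 missed it in all 6 of these fits, Caskin1 and Cnksr2 in 5, Shank1 and Ppp3ca in 4 and Homer1 in 3, with adjusted p up to 0.202, 0.172, 0.142, 0.110, 0.0953 and 0.0804 in that order (limma). With the set of rats as a block, 24 members passed, all 15 among them, against 8006 of all probe sets in place of 3700.

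Other genes of the same pathways, 59 of 70 listed having a kept probe set, gave 12 higher and 11 lower in the hippocampal formation, with a median of -0.08. Among other CaMKII genes, Camk2n1, an endogenous CaMKII inhibitor, had a log2 difference of -1.26 (SE 0.0703, adjusted p = 9.37e-05, limma), and Camk2d, the delta subunit, of -0.80. Prkcb, the protein kinase C beta, was lower (-0.44), the opposite direction to Prkca. Among other adhesion molecules, the ephrin receptor Epha7 was higher by 1.65 (adjusted p = 0.000767, limma), the ephrin Efnb3 by 0.78, and the receptor phosphatase Ptprd had -0.42. Magi1 and Magi3, MAGUKs with inverted domain order, had -0.60 and -0.63, and Lin7c, a PDZ protein, 0.75. The actin regulators Pak1, Limk1 and Cttn had -0.54, -0.54 and 0.56. All these passed the threshold.

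The sleep states were compared within each structure, deprived minus control, recovery minus control and recovery minus deprived, from 2 pools per group. No member and no probe set passed an adjusted p of 0.05 in any of the 6 comparisons (limma; percent called 0). At an unadjusted p under 0.05, 0, 2 and 1 of the 39 members were counted in the hippocampal formation, where 1.1%, 1.51% and 1.62% of all probe sets were. In the neocortex 0 members were counted in each comparison, beside 1.11%, 1.12% and 0.907% of all probe sets. This model takes the pools as independent. With the set of rats as a block, the unadjusted counts were 4, 5 and 5 members of 39 in the hippocampal formation (1106, 1363 and 1334 of the 18625 probe sets) and 5, 3 and 2 in the neocortex (1070, 1078 and 849 probe sets), and again no member passed an adjusted p of 0.05 (limma). The members' median changes were 0.00, -0.00 and -0.01 in the hippocampal formation and 0.03, -0.00 and -0.07 in the neocortex, all on the log2 scale.

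The share of members whose pools did not overlap between 2 states was above that of all probe sets in 3 comparisons and below it in 3. In the hippocampal formation, 8 of 39 members did not overlap for deprived minus control (19.3% of all probe sets), 11 for recovery minus control (19.9% of all) and 8 for recovery minus deprived (23.2% of all). In the neocortex the counts were 7 (24.5% of all), 7 (24% of all) and 12 (23.4% of all). The median distance between 2 pools of the same group was 0.236 on the log2 scale for the members, and that between duplicate arrays of 1 pool 0.114. The members below include those with the smallest p among the non-overlapping ones, and their adjusted p was 1 in each of these comparisons (limma). Other members are described as examples by role, and some further probe sets were singled out after their values were seen. The pools of some of these overlapped, as for Camk2a.

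**Figure D3:**
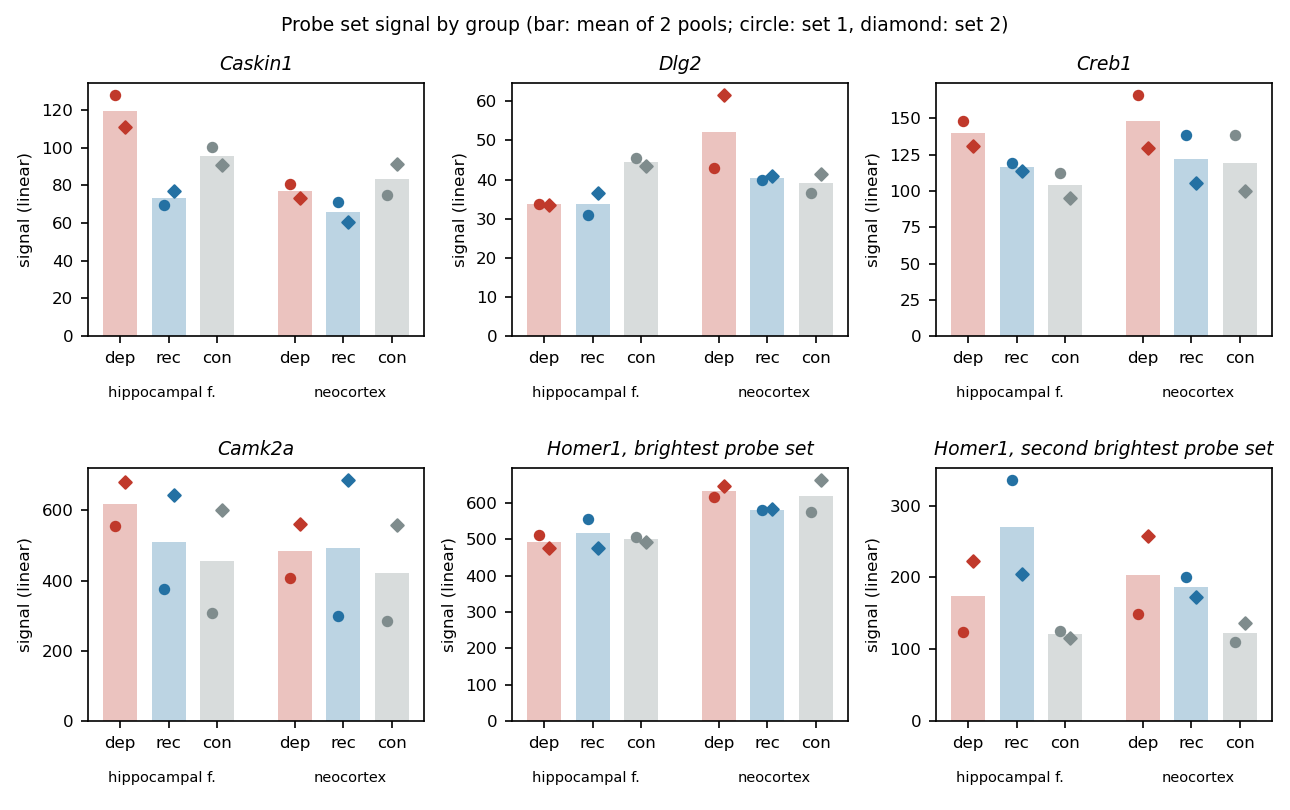
Linear signal in each of the 12 pools for Caskin1, Dlg2, Creb1, Camk2a and 2 probe sets of Homer1, hippocampal groups left and neocortical groups right in each panel (dep, deprived; rec, recovery; con, control); bars are means of 2 pools, circles set 1 and diamonds set 2. Caskin1 in the hippocampal formation was at 111 and 128 in deprived pools and at 69.4 and 76.9 in recovery pools, and the second brightest Homer1 probe set was at 204 and 336 in recovery pools against 116 and 125 in control pools.

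Caskin1 had the smallest p of any member in any sleep comparison. In the hippocampal formation its signal was 128 and 111 in deprived pools, 69.4 and 76.9 in recovery pools, and 101 and 90.6 in control pools. The 3 states did not overlap, with deprived highest and recovery lowest. Recovery minus deprived was -0.70 (SE 0.156, unadjusted p = 0.00116 and adjusted p = 1, limma), -0.88 in set 1 and -0.53 in set 2. Against control the change was 0.32 after deprivation and -0.39 after recovery. In the neocortex Caskin1 read 80.6 and 73.4 in deprived pools, 70.9 and 60.5 in recovery pools, and 75.1 and 91.5 in control pools. There the recovery pools were again the lowest, with a recovery minus control change of -0.34, and the deprived and control pools overlapped.

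Dlg2 (PSD-93), a MAGUK that anchors NMDA receptors, was at 33.8 and 33.6 in deprived, 31.0 and 36.6 in recovery, and 45.6 and 43.5 in control hippocampal pools. Both manipulated groups lay below the controls, by -0.40 each (SE 0.197). In the neocortex it was at 42.8 and 61.6 in deprived, 40.0 and 41.0 in recovery, and 36.6 and 41.4 in control pools. Here the deprived pools were the highest, 0.40 above control. The difference of the deprivation change between hippocampal formation and neocortex was -0.80 (SE 0.275, unadjusted p = 0.0221, adjusted p = 1, limma). Dlg2 has 1 kept probe set, and its signal was low.

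Dlgap3 showed the same arrangement at a smaller size. Its hippocampal signal was 114 and 115 in deprived, 106 and 104 in recovery, and 131 and 124 in control pools. Its neocortical signal was 165 and 168 in deprived, 166 and 152 in recovery, and 149 and 142 in control pools. The controls were thus the highest group in the hippocampal formation and the lowest in the neocortex, with no overlap in either. Recovery minus control was -0.29 in the hippocampal formation (SE 0.104, unadjusted p = 0.0209, adjusted p = 1, limma) and 0.12 in the neocortex, and the difference between the structures was -0.41 (unadjusted p = 0.0266, adjusted p = 1, limma). After deprivation a second Dlgap3 probe set gave 0.11 in the hippocampal formation, the opposite sign to the -0.16 of the first. Dlgap4 in the neocortex was at 298 and 334 in deprived, against 260.4 and 268 in control pools, a change of 0.26 (SE 0.125).

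Among the Shank and Homer scaffolds, Homer3 in the neocortex was at 33.4 and 29.4 in deprived, 28.9 and 25.3 in recovery, and 26.4 and 26.0 in control pools. The deprived pools were the highest, with a deprived minus control change of 0.26 (SE 0.155), although a second probe set gave -0.10. In the hippocampal formation it was at 103 and 92.0 in deprived, 119 and 111 in recovery, and 107 and 91.2 in control pools, with recovery highest. The recovery minus deprived change differed between hippocampal formation and neocortex by 0.46 (SE 0.202, unadjusted p = 0.0579, adjusted p = 1, limma). The second Homer3 probe set did not share this difference and gave 0.02 (SE 0.315). Its recovery minus deprived change was 0.22 in the hippocampal formation and 0.20 in the neocortex. Shank2 in the hippocampal formation was at 355 and 358 in recovery, against 429 and 381 in deprived pools, a change of -0.18 (SE 0.118).

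Homer1 calls for a separate account, because its probe sets did not move alike. They were singled out after their values were seen. The brightest probe set was at 511 and 475 in deprived, 556 and 477 in recovery, and 507 and 492 in control hippocampal pools, groups that all overlapped. The second brightest probe set was at 125 and 223 in deprived, 336 and 204 in recovery, and 125 and 116 in control hippocampal pools. Both recovery pools lay above both control pools, by 2.17-fold (log2 change 1.12, SE 0.333, unadjusted p = 0.00746, adjusted p = 1, limma), and the gain was 1.42 in set 1 and 0.82 in set 2.

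In the neocortex the second brightest Homer1 probe set was at 149 and 258 in deprived, 200.2 and 173 in recovery, and 109.8 and 136 in control pools. Both manipulated groups lay above the controls, by 0.68 and 0.60 (SE 0.333). The dimmest of the 5 Homer1 probe sets was at 23.2 and 44.3 in deprived, 59.4 and 44.0 in recovery, and 12.0 and 35.5 in control hippocampal pools, a recovery minus control change of 1.31 (SE 0.503). Of the 81 kept probe sets of the members, these 2 held the largest recovery minus control changes in the hippocampal formation, and the second brightest Homer1 probe set the largest ones in the neocortex for both deprivation and recovery. The deprived pools of set 1 and set 2 disagreed in the hippocampal formation, where the second brightest probe set changed by -0.01 in set 1 and by 0.94 in set 2. The annotation used here does not say which Homer1 transcript each probe set reads.

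No adhesion molecule passed the test in a sleep comparison, and their changes against control ran from -0.33 (Nrxn3, deprived, hippocampal formation) to 0.25 (Nlgn2, recovery, neocortex), with SE up to 0.451. Epha4 in the neocortex was at 873 and 842 in recovery, against 964 and 925 in control pools, a change of -0.14 (SE 0.142), with -0.27 to -0.07 on its 3 other probe sets. The medians over the 6 adhesion members were -0.01 after deprivation and -0.04 after recovery in the hippocampal formation, and 0.01 and 0.00 in the neocortex. Nlgn1, a postsynaptic organiser of excitatory synapses, changed by between 0.00 and 0.16 on its brightest probe set in the 4 comparisons with control. Its other probe set had the opposite sign, below control, in all 4. Nrxn2 changed by between 0.00 and 0.14. A second Nlgn3 probe set, singled out after its values were seen, was at 18.1 and 32.6 in deprived, 37.3 and 29.3 in recovery, and 45.0 and 34.1 in control hippocampal pools. The deprived pools lay below the controls without overlap, a change of -0.69 (SE 0.287, adjusted p = 1, limma), against -0.21 on the first Nlgn3 probe set. In the neocortex the second probe set was at 28.3 in both recovery pools, against 37.7 and 43.2 in deprived pools, a change of -0.51 (SE 0.287).

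Of the adaptors and GTPase regulators, Grip1 in the hippocampal formation was at 41.5 and 33.1 in deprived, against 24.4 and 32.0 in control pools, a change of 0.41 (SE 0.234) that was 0.77 in set 1 and 0.05 in set 2. Lrrc7 (densin-180), which binds CaMKII and Shank, was at 35.7 and 27.3 in recovery, against 39.5 and 39.2 in deprived neocortical pools, a change of -0.33 (SE 0.23). Iqsec1 in the hippocampal formation was at 319.9 and 351 in recovery, 387 and 389 in deprived, and 388 and 368 in control pools. The recovery pools were the lowest, with changes of -0.21 against deprived and -0.17 against control (SE 0.105 each).

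The calcium-dependent enzymes gave no change that passed. Camk2a, the CaMKII subunit most studied in learning, was at 555 and 682 in deprived, 376 and 644 in recovery, and 309 and 602 in control hippocampal pools. In the neocortex it was at 406 and 562 in deprived, 300.4 and 687 in recovery, and 285 and 558 in control pools. The pools of set 2 were above those of set 1 in every group, and the groups overlapped. Deprived minus control was 0.51 in the hippocampal formation and 0.26 in the neocortex (SE 0.471 each), on a probe set whose duplicate arrays differed by a median of 0.468. Camk2b changed by -0.05 to 0.05 in the 4 comparisons with control, with an SE of 0.21, and the calcineurin subunit Ppp3ca by -0.08 to -0.00. A second Camk2b probe set gave 0.15 after deprivation and 0.15 after recovery in the hippocampal formation (SE 0.25), and 0.10 and 0.09 in the neocortex. For Ppp3ca, probe sets of both signs occurred for recovery minus control in the neocortex.

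Prkca was at 74.7 and 67.9 in deprived, 103 and 77.2 in recovery, and 79.5 and 60.6 in control hippocampal pools. In the neocortex it was at 46.9 and 49.3 in deprived, 46.3 and 38.8 in recovery, and 50.1 and 36.1 in control pools. Only the recovery and deprived pools were without overlap, with recovery above deprived in the hippocampal formation and below it in the neocortex. The recovery minus deprived change differed between the structures by 0.50 (SE 0.2, unadjusted p = 0.0397, adjusted p = 1, limma), 0.48 in set 1 and 0.53 in set 2.

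Creb1, the transcription factor phosphorylated by calcium-dependent kinases, was at 148 and 131 in deprived, 119.6 and 114 in recovery, and 113 and 95.3 in control hippocampal pools. The 3 states did not overlap, with deprived highest, and deprived minus control was 0.43 (SE 0.201, unadjusted p = 0.0601, adjusted p = 1, limma), 0.40 in set 1 and 0.46 in set 2. In the neocortex it was at 166 and 129.7 in deprived, 139 and 106 in recovery, and 138 and 99.7 in control pools. These overlapped, with set 1 above set 2 in every state, and the deprived pool was the higher in each set, by 0.26 and 0.38. A second, dim Creb1 probe set gave 0.34 in the hippocampal formation and 0.25 in the neocortex after deprivation.

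Crem, whose products include the CREB repressor ICER, was at 113 and 167 in deprived, 130.4 and 155 in recovery, and 109 and 124 in control neocortical pools. Recovery lay above control without overlap by 0.29 (SE 0.242), while the deprived and control pools overlapped. The dimmest kept Crem probe set was singled out after its values were seen. Its deprived minus control changes were 0.81 in the hippocampal formation and 0.65 in the neocortex (SE 0.386). Its recovery minus control changes were 0.74 and 0.25. The hippocampal recovery change was 1.35 in set 1 and 0.12 in set 2, and the neocortical deprivation change 0.19 and 1.11. The hippocampal deprivation change was 0.76 and 0.86, and the neocortical recovery change 0.22 and 0.27. Its control pools read 14.3 to 20.1, around the filter cut of 19.7. The second brightest Crem probe set gave 0.02 and 0.15 after deprivation and 0.13 and -0.13 after recovery, hippocampal formation first. None passed the test.

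CREB and CREM proteins bind the cAMP response element (CRE), so the windows upstream of the members' start sites were searched for its letters on both strands. A core was also counted within a full palindrome. The full palindrome TGACGTCA was present in 3 of 41 windows of 250 bases from 35 listed genes, 7.32% against 1.59% of 33469 windows of all rat genes. These 3 windows belonged to only 2 genes, Crem and Lrrtm2, and Lrrtm2 had no probe set. The shorter core TGACG was present in 8 windows, 19.5% against 18.2% of all. Windows of the CREB genes themselves are shown because both genes carry these letters close to an annotated start. Another Crem window, chr17:58933816-58934065, held 2 cores and no palindrome and is not printed. Capitals mark the palindrome in the printed Crem windows and the core in the Creb1 window. All are on the plus strand of RefSeq's GRCr8 assembly, 5′ to 3′.
Crem, chr17:58984726-58984763: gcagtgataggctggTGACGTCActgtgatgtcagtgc
Crem, chr17:58985440-58985477: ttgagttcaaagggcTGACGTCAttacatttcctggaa
Creb1, chr9:73397414-73397469: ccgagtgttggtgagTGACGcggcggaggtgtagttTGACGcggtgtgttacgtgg
A match is a description of these letters and not a measured binding site.

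**Figure D4:**
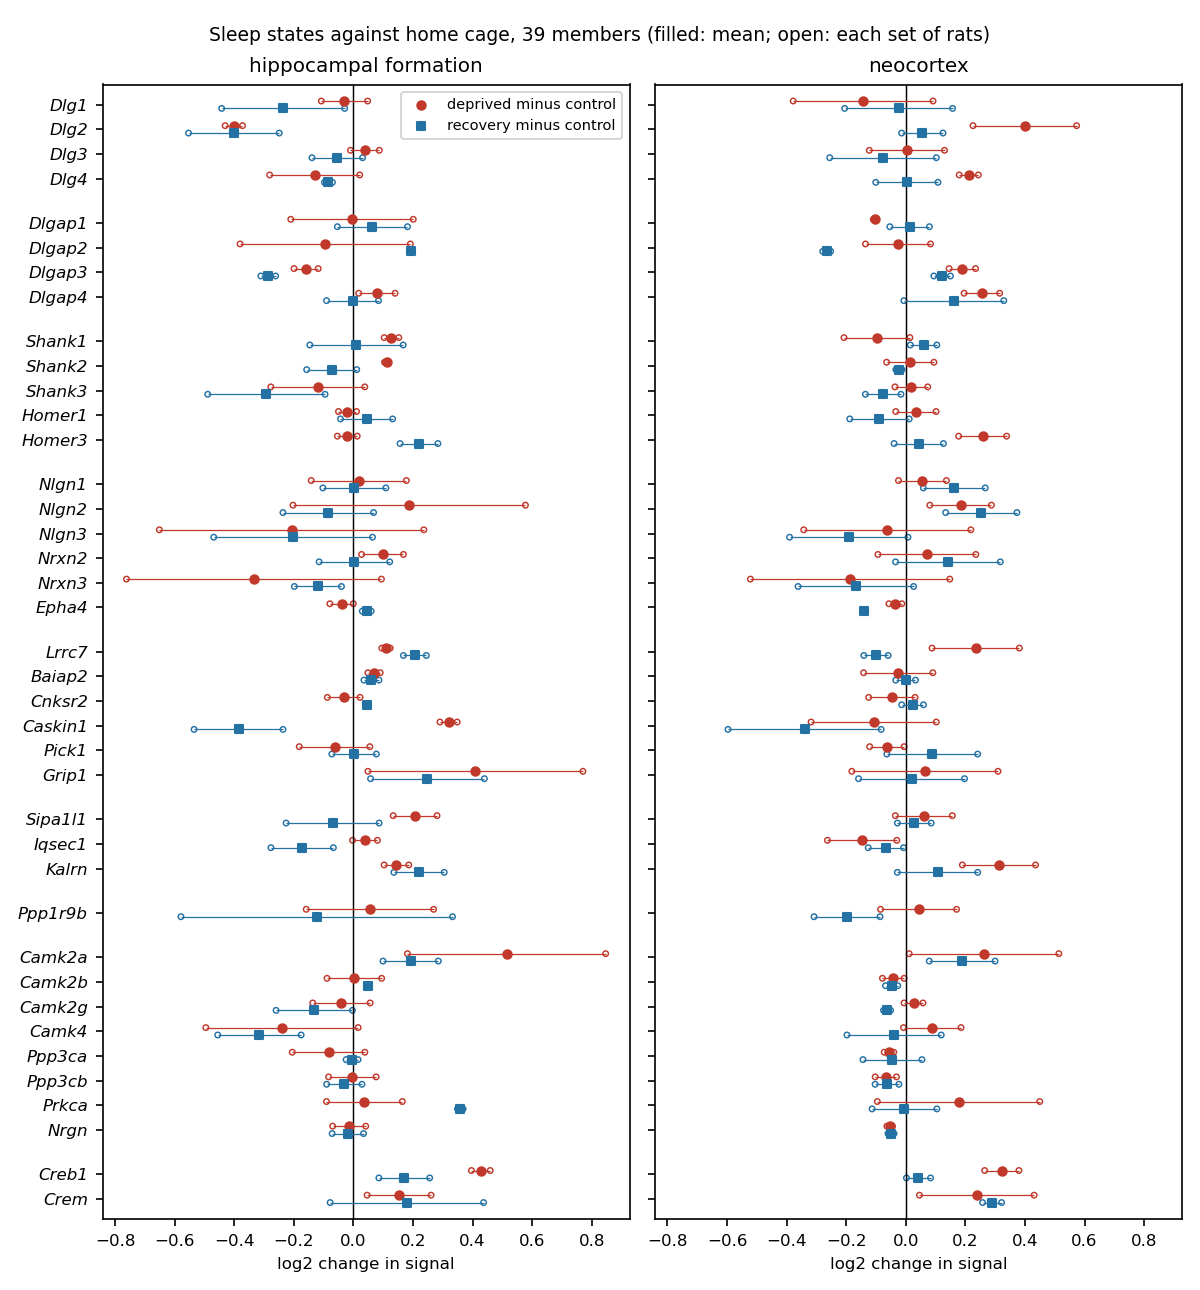
Log2 change against home cage controls for the 39 members, hippocampal formation left and neocortex right; filled circles are deprived minus control, filled squares recovery minus control, and open points joined by a line are the values in set 1 and set 2. No change passed an adjusted p of 0.05 (limma), the mean changes lay between -0.40 and 0.51, and for many members the 2 sets fell on opposite sides of 0.

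The change between states was also compared between the structures as an interaction. No member and no probe set passed in any of the 3 interactions (limma; percent called 0). At an unadjusted p under 0.05, 2, 1 and 1 members were counted for deprived minus control, recovery minus control and recovery minus deprived, beside 1.14%, 1.3% and 1.6% of all probe sets. These were Dlg2 (-0.80) and Dlgap3 (-0.35), Dlgap3 (-0.41), and Prkca (0.50). The next smallest p among members without overlap belonged to Caskin1 (0.43) and Dlg4 (-0.34) for deprived minus control. For recovery minus control they were Prkca (0.36), Dlg2 (-0.46) and Dlg1 (-0.21). For recovery minus deprived they were Homer3 (0.46), Dlg1 (-0.33) and Caskin1 (-0.47). Another Dlg4 probe set had the opposite sign for deprived minus control. The other Dlg1 probe set had the opposite sign for both recovery minus control and recovery minus deprived. The other Homer3 probe set gave 0.02 for recovery minus deprived. Of the 59 other pathway genes, 0 passed in any sleep comparison, and at an unadjusted p under 0.05 there were Mpp2 after deprivation in the neocortex (0.29) and Camk2d after recovery in the hippocampal formation (-0.38). In the interactions there were Mpp2 (-0.45) and Lrrc4 (0.39) for deprived minus control and Camk1 (-0.45) for recovery minus control.

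With n = 2 pools per group the SE of a sleep-state change was between 0.104 and 0.471 for the chosen probe sets of the members named here. A p that missed the threshold does not show that a gene was unchanged.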

How the data were processed

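Pooled total RNA was labelled with biotin and measured on Affymetrix rat arrays, per the labels' protocols. The authors deposited linear probe set intensities made with MAS5, per the submitters' processing notes, which give no version. The trimmed mean signal, taken without the extreme values, lay between 100.026 and 100.031 on all arrays. The arrays were thus already scaled and were not normalized further. Array medians still lay at 32.1 to 34.7 in the hippocampal formation and at 34.2 to 37.1 in the neocortex.

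Signals were raised to a floor of 1 and log2-transformed, the 2 arrays of a set 1 pool were averaged, 57 control probe sets were left out, and the dimmest 40% of the rest by mean log2 value were removed. Sleep states were tested with limma 3.58.1 (R 4.3.3, lmFit and eBayes with an intensity trend) in a means model of all 12 pools, which takes them as independent. Structures and interactions were tested on the paired differences of the 6 animal pools. P-values were adjusted by Benjamini-Hochberg over all 18625 probe sets. Sample labels were followed for recovery (72 h of deprivation, then 6 h), although the treatment protocol may also mean 6 h following 78 h.

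The members, the pathway and marker lists, and the tests were chosen with earlier results of these data known. Named for the structures were the 6 largest differences each way among those that passed, and for each sleep comparison and interaction the 4 smallest p among members with non-overlapping pools. The brightest and the dimmest member and up to 3 genes per pathway list were also named, and other members are named as examples by role. Alternatives covered the filter, the log scale, quantile normalization, the technical arrays, the probe set per gene, the set as a block and each pool left out. Sequence windows came from RefSeq's GRCr8 tables, which held 35 of the 45 listed genes. Figures were drawn with matplotlib 3.10.9 (Python 3.11.15).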

Additional observations from a re-analysis of the deposited data

How the results depend on the processing

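No direction of a named member that passed was reversed by any alternative run. The labels pair the sets of rats across states by number only; after subtracting group means, pools with the same number correlated at 0.539 to 0.682 in the same structure and at 0.182 to 0.387 across structures. With the replicate number as a block, 24 members and 8006 probe sets passed between the structures, all 15 members among them, and 2 probe sets passed for deprived minus control and 1 for recovery minus deprived in the neocortex, 2 in the recovery minus deprived interaction, and no member in any of these. The smallest blocked adjusted p of a member for a sleep state was 0.309 (Caskin1, recovery minus deprived, hippocampal formation, limma). With every array kept and the pool as a random block, 2 probe sets passed for deprived minus control in the neocortex. Leaving out set 2 left 1 pool per group, so spread within a sleep state could not be estimated. The count of members from that fit is therefore not comparable with the 15 of the main fit, and no share of all probe sets is given beside it. Without the pools of set 2, 26 members passed between the structures, with a median of 0.0319, and with the first technical array alone the median was -0.102.

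Leaving out 1 animal pool gave 1625 to 4507 probe sets and 9 to 18 members between the structures, with a members' median of -0.0624 to -0.0121. The lowest counts, 1625 and 9, came without set 1 of the deprived rats, and 10 members passed without deprived set 2, recovery set 1 or control set 1. Shank2 missed the threshold in all 6 of these fits, Caskin1 and Cnksr2 in 5, Shank1 and Ppp3ca in 4 and Homer1 in 3, while the other 9 members passed in all. Shank2, Caskin1 and Ppp3ca also lost it without the filter (adjusted p = 0.0691 for Caskin1 and 0.0752 for Ppp3ca, limma), Shank2, Cnksr2 and Caskin1 with the second technical array alone (0.0944 for Caskin1) and Ppp3ca with quantile normalization (0.0541). Shank1 and Camk2g lost it when all probe sets of a gene were averaged (0.331 and 0.0888), and Homer3 was too dim to be tested when the lowest 60% were removed. No probe set passed in any sleep-state comparison or interaction with any 1 pool left out.

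The members' small medians moved. For recovery minus control in the neocortex the median was -0.0232 without the filter, -0.0510 and 0.0259 with the first or second technical array alone, -0.0186 with all arrays and -0.0195 with probe sets averaged. For recovery minus deprived in the neocortex it was -0.0449 without the filter, -0.0187 with the lowest 60% removed, -0.0617 with 16 added before the log, -0.0634 after quantile normalization, -0.0565 and -0.0541 with either technical array and -0.0592 with all arrays. In the hippocampal formation it was 0.0274 (60% removed), 0.0260 (quantile), 0.0727 and -0.0199 (first or second technical array) for deprived minus control, and -0.0543 (60% removed), -0.0412 and -0.0612 (first or second technical array) for recovery minus deprived. With 1 pool left out, the medians ranged from -0.0906 to 0.0876 for deprived minus control, -0.0660 to 0.0142 for recovery minus control and -0.112 to 0.0027 for recovery minus deprived in the hippocampal formation, and from -0.0051 to 0.0514, -0.0641 to -0.0046 and -0.0822 to -0.0445 for the same 3 comparisons in the neocortex. The causes were not tested. The 2 pools per group limit the precision, since the median distance was 0.236 between pools of a group and 0.114 between duplicate arrays of a pool.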
